A study of Mus musculus with 28 samples.

Results

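The genes described here are 10 hypoxia response genes, *Pdk1*, *Hif1a*, *Egln1*, *Egln3*, *Bnip3*, *Ankrd37*, *Vegfa*, *Ndrg1*, *P4ha1* and *Ero1l*, chosen by symbol and joined by gene identifier across the RNA-seq values, the chromatin RNA counts and the peak lists. All 10 have a value in every RNA-seq library, among 15384 genes in the table. The cells were mouse embryonic stem cells (mESCs) of the E14 line, a cultured line grown with serum and leukaemia inhibitory factor. Control mESCs were transfected with a scramble shRNA vector, and *Ssrp1* knockdown (KD) mESCs with a mixture of shRNA vectors against *Ssrp1*. Both groups were put under puromycin (2 μg/ml) from 48 h after transfection for another 24 h, and ERCC spike-in RNA was added to their total RNA. Each group had 4 libraries, which the methods call biological replicates without saying whether these were separate cultures or transfections, and the p-values measure the spread between them. Untreated E14 mESCs gave 2 libraries of chromatin-associated RNA and the ChIP-seq peaks of SSRP1 and SUPT16, the 2 subunits of the histone chaperone FACT. Early neural progenitor cells (NPCs, 3 libraries), grown from E14 embryoid bodies kept in 1 μM retinoic acid for 4 days and then without leukaemia inhibitory factor for 3 days, enter only through a mean that the authors pooled with mESCs. The labels name no oxygen treatment in any group.

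Cells sense oxygen through the hypoxia-inducible factors (HIFs). When oxygen is plentiful, prolyl hydroxylases of the EGLN family mark HIF-α proteins such as HIF1A for recognition by VHL and for degradation. When oxygen is low the α subunit persists, pairs with ARNT and binds short DNA elements near genes of glucose use, mitochondrial turnover, blood vessel growth and matrix formation. HIF1A is controlled largely at the protein level, and its own mRNA is therefore not a measure of its activity.

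HIF elements share the core letters ACGTG or GCGTG, which were searched on both strands (CACGT and CACGC on the other) in RefSeq promoters of GRCm38.p6 that run from 250 bases before to 50 after a start site. Of 32851 such promoters, 19.6% held ACGTG, 32.4% held GCGTG and 43.8% held either one. Among the 14696 promoters of genes with an RNA-seq value the shares were 24.6%, 48.6% and 59.9%. A promoter entry was matched for 9 members (11 entries) and all 9 had an entry with at least 1 of the cores, 8 of them ACGTG and 7 GCGTG. These counts are per gene, with any entry counted, whereas the shares are per promoter, so they are not directly comparable. *Pdk1* and *Vegfa* each also had an entry with neither core, which for *Vegfa* is the entry at the start of the annotated gene. No entry was matched for *Ndrg1*. The first set of sequences is shown because these members rose most in KD, with *Bnip3* and *Ankrd37* chosen for printing after their values were seen, and capitals mark the cores. The *Pdk1* entry at chr2:71872974-71873273 (plus strand), the *Bnip3* entry at chr7:138909457-138909756 (minus strand) and the *Ankrd37* entry at chr8:45999801-46000100 (minus strand) read, 5′ to 3′:
*Pdk1*: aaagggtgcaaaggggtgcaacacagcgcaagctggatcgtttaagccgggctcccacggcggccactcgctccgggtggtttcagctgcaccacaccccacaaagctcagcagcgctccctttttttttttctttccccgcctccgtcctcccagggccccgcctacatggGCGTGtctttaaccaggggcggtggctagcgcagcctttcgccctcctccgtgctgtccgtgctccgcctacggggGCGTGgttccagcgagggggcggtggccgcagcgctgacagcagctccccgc
*Bnip3*: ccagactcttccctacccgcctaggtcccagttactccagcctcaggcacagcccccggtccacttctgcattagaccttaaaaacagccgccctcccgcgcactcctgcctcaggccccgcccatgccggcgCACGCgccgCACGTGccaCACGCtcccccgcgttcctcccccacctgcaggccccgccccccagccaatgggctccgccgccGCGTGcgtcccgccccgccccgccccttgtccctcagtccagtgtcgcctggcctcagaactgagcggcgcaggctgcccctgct
*Ankrd37*: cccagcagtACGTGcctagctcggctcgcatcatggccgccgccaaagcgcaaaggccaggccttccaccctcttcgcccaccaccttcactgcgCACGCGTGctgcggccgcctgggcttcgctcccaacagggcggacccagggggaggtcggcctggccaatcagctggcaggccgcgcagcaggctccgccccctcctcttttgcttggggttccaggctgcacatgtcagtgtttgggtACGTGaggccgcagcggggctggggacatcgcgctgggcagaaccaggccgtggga

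*Pdk1* held GCGTG at 2 places, beginning at positions -78 and -2 from its start site, and no ACGTG. A second *Pdk1* entry, at chr2:71874654-71874953, held neither core. *Bnip3* held both cores, with its ACGTG and CACGT matches overlapping in a single CACGTG, an E-box that other factors also bind and that 7.15% of all promoters hold. *Ankrd37* held ACGTG beginning at positions -241 and -6, and overlapping CACGC and GCGTG matches from position -155. The letters describe these windows and say nothing of whether a factor is bound there.

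The second set is shown because the authors' lists place a SSRP1 or SUPT16 peak within 1000 bp of a start site of these genes. The entries are *Hif1a* at chr12:73907617-73907916 (plus strand), *Egln1* at chr8:124949205-124949504 (minus strand), *P4ha1* at chr10:59323046-59323345 (plus strand) and *Ero1l*, which RefSeq names *Ero1a*, at chr14:45318523-45318822 (minus strand):
*Hif1a*: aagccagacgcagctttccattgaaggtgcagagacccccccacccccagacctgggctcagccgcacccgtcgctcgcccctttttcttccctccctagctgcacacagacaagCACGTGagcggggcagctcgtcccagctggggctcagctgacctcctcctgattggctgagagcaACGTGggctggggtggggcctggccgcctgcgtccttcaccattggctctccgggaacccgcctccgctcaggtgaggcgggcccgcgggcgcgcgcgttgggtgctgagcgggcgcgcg
*Egln1*: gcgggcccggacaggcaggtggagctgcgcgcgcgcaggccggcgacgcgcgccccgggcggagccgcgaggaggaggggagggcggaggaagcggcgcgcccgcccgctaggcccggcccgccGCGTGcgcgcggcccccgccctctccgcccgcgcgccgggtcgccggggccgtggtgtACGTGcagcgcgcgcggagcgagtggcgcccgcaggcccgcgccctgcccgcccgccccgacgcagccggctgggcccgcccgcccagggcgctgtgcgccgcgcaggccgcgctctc
*P4ha1*: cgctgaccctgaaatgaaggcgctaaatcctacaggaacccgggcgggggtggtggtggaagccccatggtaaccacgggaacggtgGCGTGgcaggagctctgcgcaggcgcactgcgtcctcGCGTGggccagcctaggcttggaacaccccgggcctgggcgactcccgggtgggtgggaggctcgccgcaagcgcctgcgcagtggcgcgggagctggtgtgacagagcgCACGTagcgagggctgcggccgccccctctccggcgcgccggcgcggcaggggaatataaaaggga
*Ero1l*: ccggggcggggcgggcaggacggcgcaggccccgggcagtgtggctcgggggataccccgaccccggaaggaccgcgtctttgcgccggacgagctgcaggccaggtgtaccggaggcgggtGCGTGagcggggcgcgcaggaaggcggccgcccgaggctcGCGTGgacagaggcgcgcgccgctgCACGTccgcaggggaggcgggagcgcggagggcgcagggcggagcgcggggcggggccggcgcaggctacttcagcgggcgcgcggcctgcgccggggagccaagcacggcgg

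*Hif1a* held ACGTG at 2 places, one of them inside a CACGTG, and no GCGTG. *Egln1*, *P4ha1* and *Ero1l* held both cores. The *Egln1* promoter was 86.0% G and C with 60 CG dinucleotides, and *Ero1l* 80.3% with 49, against medians of 60.3% and 19 over promoters of genes with a value. *Egln3*, not printed, held a single ACGTG in a promoter of 54.7% G and C. Of the *Vegfa* entries, chr17:46032328-46032627, at the start of the annotated gene, held neither core. The other, chr17:46025114-46025413, lies inside the gene and held 1 of each.

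RNA-seq values per library were recovered as whole reads, 4602278 to 6680919 in control and 9433193 to 19856032 in KD, so low values are less precise in control. Over 4 libraries a group, *Ssrp1* was at 235 ± 17.6 (SD) in control and 26.1 ± 2.13 in KD, called lower, and *Supt16* at 319 ± 22.0 and 504 ± 20.2 (log2 fold change 0.66, not called). A gene was called where limma, on log2(library-size value + 0.5), gave a log2 fold change past 1 in either direction together with a Benjamini-Hochberg adjusted p below 0.01, and this scale understates changes of low genes. By this rule 4405 of 15384 genes were called, 1242 higher (8.07%) and 3163 lower (20.6%) in KD. The labelled cell type was checked by its markers: all 8 pluripotency markers had a value and summed to 1619 to 1738 in control and 4667 to 5154 in KD. Markers of other cell types also moved: summed primitive endoderm markers (6 of 7 with a value) were 65.9 to 95.6 in control and 27.3 to 32.0 in KD, trophectoderm (5 of 6) 89.7 to 100.5 and 50.7 to 53.4, mesoderm (2 of 4) 8.78 to 10.6 and 1.94 to 3.65, and fibroblast (5 of 7) 49.96 to 63.7 and 13.2 to 14.95. The sum of the neural markers (6 of 6) was 99.1 to 120.1 in control and 147.6 to 159.7 in KD through 1 gene, *Tubb3* (33.6 ± 5.27 and 108 ± 4.56, called higher), whereas *Pax6*, *Map2* and *Neurod1*, named like *Tubb3* after their values were seen, were called lower and the median log2 fold change of the 6 was -1.09. *Foxa2*, *Elf5*, *T*, *Mixl1*, *Lum* and *Dcn* have no value in the table. The part of these cell types in the results was not tested, and in bulk RNA a change in the number of cells of a type and a change in RNA per cell cannot be told apart.

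Of the 10 members, 7 were called higher in KD and 0 lower (0 also with edgeR and DESeq2, and 0 lower at an unadjusted p below 0.05), against 8.07% of all genes called higher and 20.6% called lower. *Pdk1*, *Bnip3* and *Ankrd37* changed most, followed by *P4ha1*, *Vegfa*, *Egln3* and *Ero1l*, whereas *Ndrg1*, *Hif1a* and *Egln1* stayed below the fold threshold. In all 10 members every KD library lay above every control library, which was also the case for 35.8% of all genes. The exact two-sided permutation test gave p = 0.0286 for each member, the smallest that 4 against 4 libraries allow. The median log2 fold change was 1.26 over the members and -0.03 over all genes. The members were listed with earlier results of these data known, so these counts describe them and are not independent evidence.

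**Figure D1:**
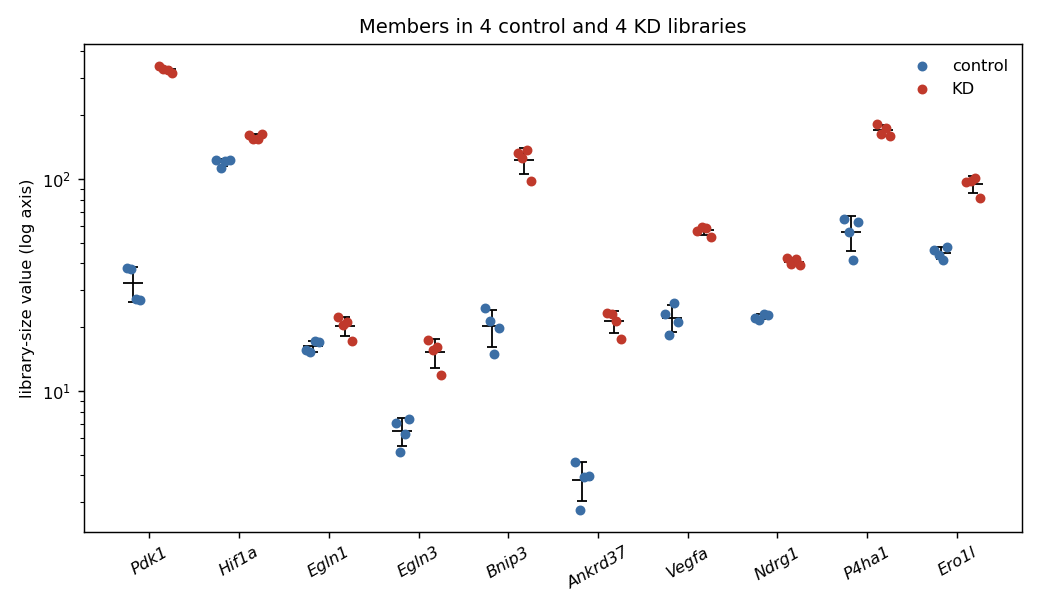
Library-size values (log axis) of the 10 members in each of the 4 control (blue) and 4 KD (red) libraries, with black bars for mean ± SD. In every member the 4 KD points lie above the 4 control points, from *Egln1*, whose groups are separated by 17.2 and 17.3, to *Pdk1*, whose groups are separated by 37.8 and 317.

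*Pdk1* encodes pyruvate dehydrogenase kinase 1, which phosphorylates and inhibits the pyruvate dehydrogenase complex and so holds pyruvate back from the tricarboxylic acid cycle. Its gene lies on chromosome 2 of GRCm38 at chr2:71873215-71903858. In the control libraries it was measured at 37.8, 37.7, 27.1 and 26.9, and in the KD libraries at 340.3, 331, 327 and 317. The groups are far apart, and the control libraries fall into a higher and a lower pair. The means were 32.4 ± 6.21 in control and 329 ± 9.75 in KD (SD, n = 4 libraries each), a ratio of 10.2 and a log2 fold change of 3.34 ± 0.09 (SE, limma adjusted p = 1.08e-21). The value rested on 151 to 278 reads in control and 2754 to 5651 in KD. Only 6 of 15384 genes had a larger log2 fold change (0.039%).

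*Bnip3* encodes a mitochondrial outer membrane protein that promotes mitophagy. It was measured at 24.6, 21.3, 14.9 and 19.8 in control and at 133, 125, 136 and 98.2 in KD, so that even the lowest KD library stood well above the highest control library. The mean rose from 20.2 ± 4.06 to 123 ± 17.3 (SD, n = 4), with a log2 fold change of 2.59 ± 0.11 (SE, limma adjusted p = 1.69e-17), and 18 genes changed more in this direction. *Ankrd37* encodes an ankyrin repeat protein known as a HIF target. Its values were 4.63, 2.75, 3.95 and 3.97 in control and 23.2, 23.0, 21.4 and 17.7 in KD, a mean rise from 3.82 ± 0.78 to 21.3 ± 2.57 (SD, n = 4) and a log2 fold change of 2.35 ± 0.15 (SE, limma adjusted p = 1.39e-13). With only 16 to 34 reads in control, *Ankrd37* is the least precisely measured member there.

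*P4ha1*, a catalytic subunit of the collagen prolyl 4-hydroxylase, stood at 64.9, 56.3, 41.4 and 62.6 in control and at 182, 163, 174 and 159 in KD. It rose by a log2 fold change of 1.60 ± 0.09 (SE, limma adjusted p = 7.57e-15). *Ero1l*, the endoplasmic reticulum oxidase that supplies disulphide bonds to secreted proteins, stood at 46.1, 43.7, 41.6 and 48.0 in control and at 96.6, 98.02, 101.4 and 81.6 in KD. Its log2 fold change of 1.06 ± 0.07 (SE, limma adjusted p = 2.96e-13) lay just past the threshold of 1, and it was no longer called with quantile normalisation, where it was 0.78. *Vegfa*, the secreted growth factor of blood vessels, stood at 23.0, 18.4, 26.0 and 21.2 in control and at 57.1, 59.4, 58.7 and 53.3 in KD, with a log2 fold change of 1.36 ± 0.09 (SE, limma adjusted p = 1.60e-13). *Ndrg1*, a stress-responsive gene of the NDRG family, was the tightest in control, at 22.1, 21.7, 23.0 and 22.8, and stood at 42.5, 39.6, 41.8 and 39.4 in KD. Its log2 fold change of 0.85 ± 0.08 (SE, limma adjusted p = 2.01e-10) passed the p threshold but not the fold threshold.

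Of the members that regulate the pathway, *Hif1a* and *Egln1* had the smallest log2 fold changes of the 10, and *Egln3* was called higher. *Hif1a* was measured at 123, 113, 121 and 123 in control and at 161, 155, 154 and 162 in KD, a narrow spread in both groups. Its log2 fold change was 0.40 ± 0.06 (SE, limma adjusted p = 3.04e-07), and 29.6% of all genes had a larger one. *Egln1*, the main oxygen-sensing HIF prolyl hydroxylase, was measured at 15.7, 15.3, 17.2 and 17.1 in control and at 22.2, 20.5, 21.1 and 17.3 in KD, with a log2 fold change of 0.30 ± 0.11 (SE, limma adjusted p = 0.0117). The lowest KD library of *Egln1* nearly touched the highest control library. *Egln3*, a prolyl hydroxylase that is itself a HIF target, stood at 7.08, 5.16, 6.28 and 7.39 in control and at 17.4, 15.6, 16.1 and 11.9 in KD. Its log2 fold change was 1.17 ± 0.15 (SE, limma adjusted p = 5.48e-08), from 30 to 54 reads in control.

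KD replicate 4 was the lowest KD library for 9 of the 10 members (all except *Hif1a*), whereas 29.4% of all genes were lowest in that library. Without KD replicate 4 the median log2 fold change of the members was 1.34, and the same number of members, 7, was called. The part of this library in the fold changes was not tested further.

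Levels of different genes were compared per kilobase of exon. In control the order ran from *Hif1a* at 25.2 ± 1.00 library-size units per kb (SD, n = 4) through *P4ha1* at 13.9 ± 2.62, *Bnip3* at 11.5 ± 2.31, *Ero1l* at 10.2 ± 0.63, *Ndrg1* at 7.75 ± 0.21, *Pdk1* at 6.31 ± 1.21, *Vegfa* at 5.31 ± 0.76, *Egln1* at 4.63 ± 0.28 and *Ankrd37* at 4.23 ± 0.86 to *Egln3* at 2.42 ± 0.37. Neighbours from *P4ha1* to *Ero1l* and from *Pdk1* to *Ankrd37* overlapped between libraries. In KD the order was different. *Bnip3* at 70.2 ± 9.86 and *Pdk1* at 64.0 ± 1.90, whose libraries overlapped, came first, followed by *P4ha1* at 42.0 ± 2.57, *Hif1a* at 33.2 ± 0.93, *Ankrd37* at 23.6 ± 2.84, *Ero1l* at 21.4 ± 1.98, *Ndrg1* at 14.1 ± 0.54, *Vegfa* at 13.7 ± 0.65, *Egln1* at 5.75 ± 0.60 and *Egln3* at 5.70 ± 0.88. *Ankrd37* and *Ero1l*, *Ndrg1* and *Vegfa*, and *Egln1* and *Egln3* also overlapped. Among all genes ranked by level per kb, *Pdk1* stood at percentile 42.2 in control and 90.1 in KD, *Bnip3* at 61.2 and 91.1, and *Hif1a* at 81.4 and 81.1.

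The deposited values scaled to the spike-ins gave larger fold changes throughout. On that scale the median log2 fold change of all genes was 0.95, and 7394 genes were called higher (48.1%) and 1082 lower (7.03%). *Pdk1* was measured at 25.4, 22.6, 18.2 and 24.1 in control and at 313, 614, 528 and 477 in KD, with a log2 fold change of 4.36 ± 0.29 (SE). KD replicate 1 was the lowest KD library on this scale for all 10 members. Its values summed over all genes were also lowest, 1.07e+06 against 1.71e+06 to 2.16e+06 in the other KD libraries. The low values there are therefore not particular to the members. Without KD replicate 1 the log2 fold change of *Pdk1* was 4.55 ± 0.20 and all 10 members were still called. All 10 members were called higher, and all 10 groups were again separated, as for 48.8% of all genes. Relative to the median of all genes, the log2 fold change of *Pdk1* was 3.41 with spike-in values and 3.38 with library-size values, that of *Bnip3* 2.65 and 2.63, and that of *Hif1a* 0.47 and 0.43. *Hif1a* reached a spike-in log2 fold change of 1.42 ± 0.29 and *Egln1* one of 1.30 ± 0.29, against that median of 0.95. With quantile normalisation, *Hif1a* was at -0.03 ± 0.05 and not called, and with CPM over the listed genes without TMM factors *Hif1a* was at -0.033 and *Egln1* at -0.12.

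**Figure D2:**
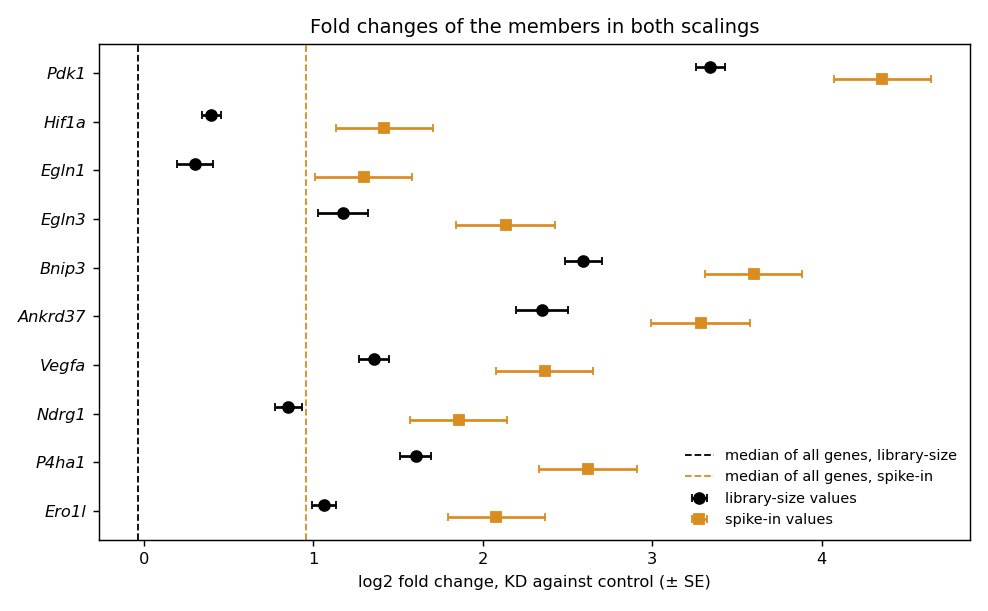
Log2 fold changes of the members (KD against control, ± SE, n = 4 libraries each) from library-size values (black circles) and spike-in values (orange squares), with the medians of all genes as dashed lines at -0.03 and 0.95. Each orange point lies about as far to the right of its black point as the dashed lines lie apart, and *Pdk1* lies farthest from the medians in both scalings.

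Other genes of oxygen sensing were listed with the members. Of 15 HIF regulators (other HIF subunits, hydroxylases, the VHL ligase and coactivators), 0 were called higher by limma, edgeR or DESeq2 (7 had an unadjusted p below 0.05 in that direction) and limma called 2 lower, with a median log2 fold change of 0.17. An unadjusted p below 0.05 in either direction was found for 12384 of all 15384 genes. By adjusted p alone, limma called 7 regulators higher and 7 lower, beside 5447 and 5745 of all genes. The 7 higher ones thus missed the call only by the fold threshold. Of all genes, limma called 8.07% higher and 20.6% lower. The 2 lower calls are not above that share and only describe the list. The 2 were *Hif3a*, which encodes another HIF-α, from 14.7 ± 3.26 to 3.11 ± 0.70, and *Arnt2*, which encodes a partner subunit, from 17.2 ± 2.56 to 3.76 ± 0.23 (log2 fold changes -2.07 and -2.05). Both were also called lower with spike-in values, but without KD replicate 1 on that scale *Arnt2* was at -0.93 and not called. With quantile normalisation 1 regulator was called higher and 4 lower, beside 1518 higher and 1656 lower among all 15384 genes. With CPM over the listed genes 5 regulators were called lower, beside 4696 of all 15384 genes.

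Glycolytic HIF targets had a median log2 fold change of 1.30, close to that of the members: 14 of 20 were called higher and 1 lower. Of all genes, 8.07% were called higher and 20.6% lower. The lower calls of the glycolysis targets and of the other hypoxia targets are below that share and only describe the lists. The largest rises were those of the lactate exporter *Slc16a3* (2.71), the phosphofructokinase *Pfkp* (2.50), triosephosphate isomerase *Tpi1* (2.50) and phosphoglycerate kinase *Pgk1* (1.90). *Pfkfb4*, which encodes a regulator of fructose 2,6-bisphosphate, fell by 1.62 on the log2 scale, but with spike-in values it was at -0.63 and not called. With quantile normalisation 7 of the 20 were called higher, beside 1518 of all 15384 genes. With CPM over the listed genes 8 of the 20 were, beside 343 of all genes. Without control replicate 1 or without control replicate 3, 2 of the 20 were called lower, beside 3331 and 3044 of all 15384 genes. Counting only genes with a value, 10 of 39 other hypoxia targets were called higher and 2 lower, with a median of 0.43. *Tfrc*, the transferrin receptor, rose by 2.06, the mitochondrial *Fam162a* by 1.70, the corepressor subunit *Sap30* by 1.61 and the cyclin *Ccng2* by 1.58. The count called lower was 1 without control replicate 2 and 4 without control replicate 4, beside 3089 and 3197 of all 15384 genes. With CPM 4 were called higher, beside 343 of all genes. *Car12*, a carbonic anhydrase, fell by 1.44 on the log2 scale, but it was at -0.47 with spike-in values, -0.29 with these without KD replicate 1 and -0.82 with quantile normalisation, and was not called in any of the 3. *Stc1*, a stanniocalcin, fell by 1.11, although it was at -0.97 and not called without control replicate 2, had a log2 fold change of 0.02 with quantile normalisation, fell by 0.20 and was not called with spike-in values, and was at 0.08 with spike-in values without KD replicate 1. *Lox* and *Epo* have no value in the table.

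Around the enzyme complex that *Pdk1* inhibits, 3 of 13 genes were called higher and 1 lower, with a median log2 fold change of 0.40. *Pdha1*, the catalytic subunit on which the kinases act, rose by 1.45, the mitochondrial pyruvate carrier subunit *Mpc1* by 1.29 and the opposing phosphatase *Pdp2* by 1.05. With quantile normalisation *Pdha1* was at 0.99 and *Pdp2* at 0.89, and without control replicate 1 *Pdp2* was just below 1, none of them called. *Mpc1* was at 0.83 with a correction for exon length and not called. With CPM over the listed genes *Mpc1* was at 0.87 and *Pdp2* at 0.62, neither called. *Pdk2*, a kinase of the same family as *Pdk1*, fell by 1.82 on the log2 scale, from 8.17 ± 1.26 to 1.96 ± 0.48. It was no longer called with quantile normalisation, at -0.77, with spike-in values, at -0.93, or with spike-in values without KD replicate 1, at -0.81. The list of relatives overlaps the other lists: *Egln2*, *P4ha2*, *Bnip3l*, *Pdk2*, *Pdk3* and *Pdk4* also stand in one of them. The calls of *Bnip3l* and *Pdk2* are therefore counted in both lists that hold them. Among the 21 relatives of members with a value (*P4ha3* has none), 2 were called higher and 5 lower, with a median of 0.03. These counts are near the shares of all genes called, 8.07% and 20.6%, and the genes named next only describe the list. *Ndrg2* rose by 1.13 and *Bnip3l*, the mitophagy relative of *Bnip3*, by 1.06, and *Bnip3l* was at 0.66 and not called with quantile normalisation. The largest falls besides *Pdk2* were those of genes for VEGF receptors: on the log2 scale, the coreceptor *Nrp1* fell by 3.54, *Kdr* fell by 2.67 and *Flt1* fell by 2.61. *Kdr* was at 13.4 ± 4.60 in control and 1.64 ± 0.45 in KD. *Vegfa*, the gene for a ligand, was called higher, but its listed relatives were not. Of these, *Pgf* was called lower, at -1.43, and was at -0.55 with spike-in values. *Vegfb* (0.41), *Vegfc* (0.03) and *Figf* (-0.71) were not called, nor was the coreceptor *Nrp2* (-0.15). These relatives and *Nrp2* were named after their values were seen. With spike-in values the higher and lower calls were 18 and 0 of 20 glycolysis targets, 27 and 0 of 39 other hypoxia targets, 11 and 0 of 13 genes of pyruvate dehydrogenase, 8 and 2 of 15 regulators, and 11 and 3 of 21 relatives. On that scale 48.1% of all genes were called higher and 7.03% lower, so the higher calls of regulators and relatives are near the share of all genes.

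**Figure D3:**
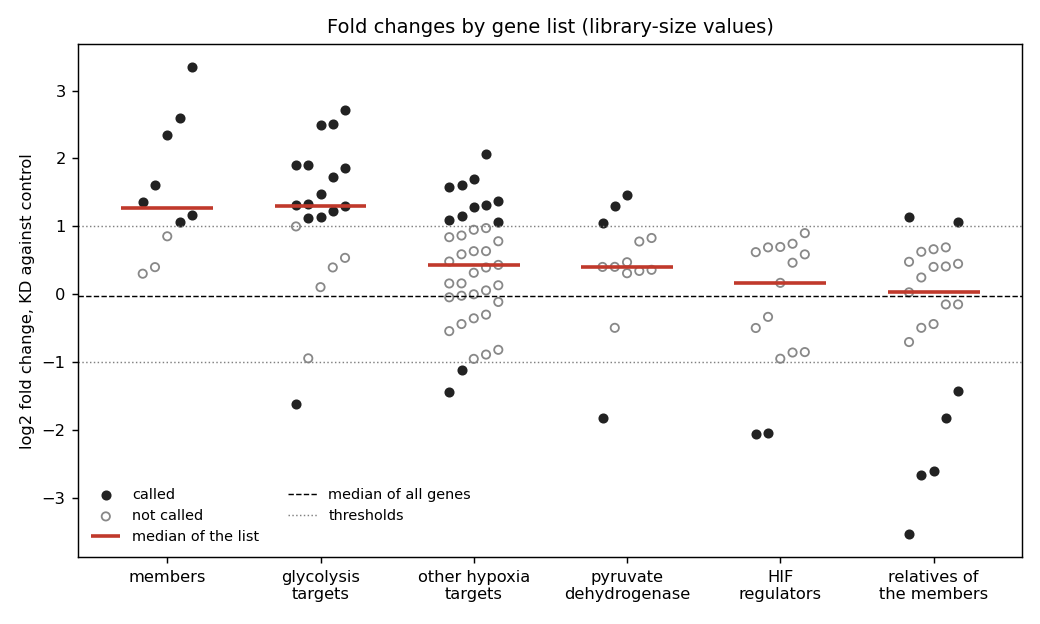
Log2 fold change of each gene (KD against control, library-size values) by list, filled where called and open where not, with red bars for list medians, a dashed line for the median of all genes and dotted lines at the fold threshold of 1. Genes that stand in several lists are drawn in each. The members and the glycolysis targets have medians of 1.26 and 1.30, and the other lists shown lie between 0.03 and 0.43. Among the cell type markers, which are not shown, the pluripotency markers had a median of 1.21 and the other marker lists had negative medians.

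The 5 genes whose profile over the 8 libraries lay nearest to that of *Pdk1*, by Euclidean distance of log2 values centred on the control mean, were *Lefty2* (distance 0.36), *Rnu3b3* (0.75), *Lefty1* (0.84), *Trh* (0.87) and *Rnu3b4* (0.93). *Lefty2* rose from 9.53 ± 1.83 to 97.8 ± 4.86 (SD, n = 4). *Rnu3b3* and *Rnu3b4* are near-identical copies of the U3 snoRNA gene, so reads may be shared between them and their values are uncertain. Of the members, *Bnip3* lay nearest to *Pdk1* (distance 1.57, rank 15 of all genes) and *Ankrd37* next (2.14, rank 34).

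FACT peaks were then compared with the members. The SSRP1 list holds 10114 peaks and the SUPT16 list 3855, each called by the authors on 2 replicates together, with positions but no heights, so the depth is unknown. By the authors' nearest-gene assignment, 7 of the 10 members carried a SSRP1 peak, against 36.0% of the 15384 genes, and 4 carried a SUPT16 peak, against 18.6%. A SSRP1 peak overlapped the gene itself in 5 members, against 31.1% of genes. The members had a median span of 33065 bp, against 21321 bp over all genes with a value. The part of gene length in these counts was not tested. *Egln3* and *Ankrd37* had no peak of either subunit. Within 1000 bp of a start site, 3 members carried a SSRP1 peak (26.0% of genes) and 3 a SUPT16 peak (15.6%).

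*Pdk1* had 2 assigned SSRP1 peaks, neither of them in the gene: chr2:71866929-71867320, whose edge lies 5895 bp upstream of the nearest start site, and chr2:71907501-71907794, downstream of the gene. *Bnip3* had 1 SSRP1 peak, chr7:138903731-138904122, in an intron 5384 bp from the start site. The 3 members that rose most therefore had no peak of either subunit within 1000 bp of a start site. This was also the case for most genes, as 26.0% had a SSRP1 peak and 15.6% a SUPT16 peak there. For *Hif1a* the SSRP1 peak chr12:73908563-73908856 was intronic and the SUPT16 peak chr12:73907961-73908170 covered exonic sequence 94 bp from the start site, and they did not overlap. *Ndrg1* had a SSRP1 peak over its start site, chr15:66968987-66969672, which also overlaps another annotated gene, and a peak 51776 bp upstream. *Ero1l* had an exonic SSRP1 peak 138 bp from the start site, chr14:45318141-45318434. For *P4ha1* the SUPT16 peak chr10:59323321-59323810 lay 25 bp from a start site, and the assigned SSRP1 peak lay 38489 bp upstream. *Egln1* had a single SUPT16 peak, chr8:124949301-124949510, 47 bp upstream. *Vegfa* was the member at which peaks of both subunits overlapped, in an intron at chr17:46030307-46031188 (SSRP1) and chr17:46030601-46030810 (SUPT16).

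**Figure D4:**
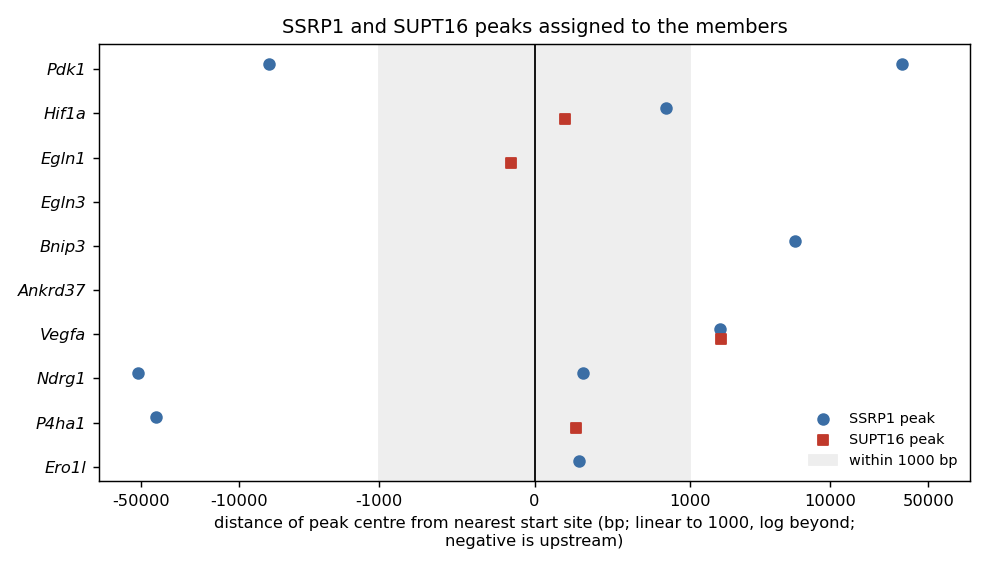
Distance of the centre of each assigned SSRP1 (blue circles) and SUPT16 (red squares) peak from the nearest start site of the member, in bp along the direction of transcription, linear to 1000 bp and logarithmic beyond. *Hif1a*, *Egln1*, *Ndrg1*, *P4ha1* and *Ero1l* have a peak centre inside the grey band of 1000 bp, *Pdk1*, *Bnip3* and *Vegfa* only outside it, and *Egln3* and *Ankrd37* have none.

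Chromatin-associated RNA from untreated mESCs gave low counts for the members, in libraries of 3441643 and 3393923 counts of which 5.56% and 9.35% fell on protein-coding genes. *Pdk1* had 31 and 56 counts (9.01 and 16.5 CPM), *Hif1a* 46 and 91, *P4ha1* 26 and 35, *Vegfa* 27 and 29, and *Ero1l* 24 and 21. These 5 members were well above the floor of 3 counts in both libraries. *Egln1* had 5 and 15, *Ndrg1* 2 and 6, and *Bnip3* 2 and 4. *Ankrd37* and *Egln3* had 0 counts in library 1, which allows up to 0.872 CPM there, and 4 and 2 counts in library 2. Counts of most members differed between the libraries, and no other group was prepared in this way, so no test was made.

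Per kilobase of exon, with the 2 libraries summed, *Hif1a* had 28.8 counts and *Pdk1* 16.9, followed by *P4ha1* with 15.1, *Vegfa* with 13.4 and *Ero1l* with 10.2. Ranked among all genes with a value, *Pdk1* stood at percentile 83.8 in chromatin RNA and 42.2 in total RNA of control mESCs, and *Vegfa* at 78.6 and 36.8. *Bnip3* went the other way, at percentile 40.6 in chromatin RNA and 61.2 in total RNA, although its 6 counts have an exact 95% Poisson interval of 2.20 to 13.1, against 69.7 to 107 for the 87 counts of *Pdk1*. The intervals cover counting error only. The chromatin and total RNA libraries were made with different protocols, and the part of the protocol in these differences was not tested.

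**Figure D5:**
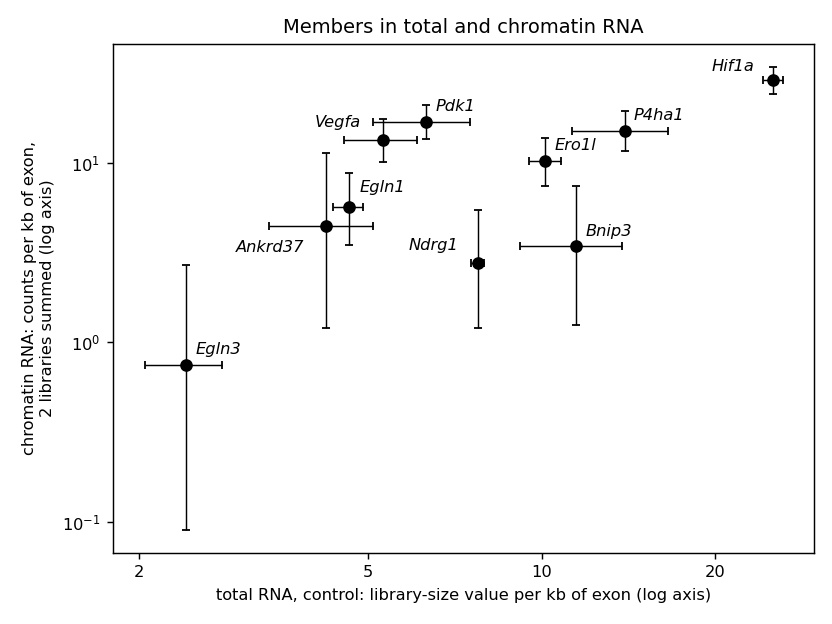
Chromatin RNA of untreated mESCs (counts per kb of exon, 2 libraries summed, exact 95% Poisson interval) against total RNA of control mESCs (library-size value per kb, mean ± SD, n = 4 libraries), both on log axes. *Hif1a* is highest on both axes, *Pdk1* and *Vegfa* lie at 16.9 and 13.4 counts per kb, and *Bnip3*, at 3.42, and *Ndrg1*, at 2.77, lie below members of similar total RNA.

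The authors' mean log2 expression over the libraries of their NPC and mESC fit gives no value per group. In it *Pdk1* stood at 4.78, *Bnip3* at 4.77 and *Hif1a* at 7.07. The mean over their KD and control fit was 6.28 for *Pdk1* and 7.01 for *Hif1a*. These are pooled means without replicates, and no comparison between NPCs and mESCs was made from them.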

How the data were processed

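Total RNA of 4 control and 4 KD libraries, chromatin RNA of 2 libraries and peak lists of SSRP1 and SUPT16 were used. The authors aligned reads to mm10 with STAR (for RNA-seq 2.5.1b per the labels but 2.4.1b per the methods, and 2.4.1b for chromatin RNA), counted them with featureCounts, and used edgeR and limma. The deposited signal per library comes scaled to library size and, separately, to the spike-ins. Both were whole multiples of 1 read (100% of values within 0.1 read), with 0 columns of other samples. Library-size values summed over all genes to 825584 to 909417 in control and 1.14e+06 to 1.18e+06 in KD. They are therefore not scaled to equal totals of these genes, and KD values are raised relative to such a scaling. The paper states that counts were normalised with TMM in edgeR. TMM factors on the recovered reads gave 4410 genes called, near the 4405 of the deposited library-size values. Each count of chromatin RNA was deposited raw. The log2 means in the authors' tables are pooled, and the fold changes, p-values and exon tests in these tables were not used. For peaks the authors ran PePr, and ChIP-Enrich to name the nearest gene.

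Library-size values were tested in limma 3.58.1 with trend, as log2(value + 0.5) over 15384 genes, and edgeR 4.0.16 and DESeq2 1.42.0 on the recovered reads, other scalings, pseudocounts and filters, treat, a length correction, a block for replicate number and fits without 1 library were alternatives. The fits were tested on simulated data. Replicates differed by more than sampling noise (chi-square of 1.88 to 6.61 for each degree of freedom). Promoter letters were equal to the genome in 11 of 11 entries. The members and gene lists were chosen with earlier results of these data known. Text names every member, *Ssrp1* and *Supt16*, at most the 4 largest called rises and 4 largest called falls of each list, listed genes without a value, and the 5 genes nearest to *Pdk1*. Also named were the coreceptor *Nrp2*, the listed relatives of the *Vegfa* ligand and genes that stand in several lists. MNase-seq, ATAC-seq and NET-seq were not analysed here. R 4.3.3 and Python 3.11.15 were used.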

Additional observations from a re-analysis of the deposited data

Results flagged for a closer look

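In the 4 control libraries, *Hif1a* stood at 113 in replicate 2 and between 121 and 123 in the other replicates, which is farther from them than Dixon's test at 95% allows for 4 values. It was the 1 case among the 20 groups tested, the 10 members in control and in KD, and chance alone gives about 1 in 20. Without control replicate 2 the log2 fold change of *Hif1a* was 0.37, against 0.40 with it.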

How the results depend on the processing

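Over 25 alternatives, *Pdk1*, *Bnip3*, *Ankrd37* and *P4ha1* kept their direction and their call, with log2 fold changes of *Pdk1* from 2.92 (CPM over the listed genes without TMM factors, added after seeing the data) to 4.55 (spike-in values without KD replicate 1, also added after seeing the data), and from 3.26 to 3.42 when single libraries were left out. The members called stayed at 7 with any library left out, were 10 with spike-in values, 9 with adjusted p alone, 6 with quantile normalisation, 5 with treat and 4 with CPM over the listed genes, where *Egln3*, *Vegfa* and *Ero1l* lost their calls. The median log2 fold change of the members was 2.25 with spike-in values, 2.42 with these without KD replicate 1, 0.85 with CPM, which put all genes at a median of -0.45, and 1.18 to 1.34 with a library left out. *Hif1a* was reversed at -0.031 with quantile normalisation and -0.033 with CPM, *Egln1* at -0.12 with CPM, and *Stc1* at 0.021 with quantile normalisation and 0.077 with spike-in values without KD replicate 1. Genes called numbered 8476 with spike-in values, 9441 with these without KD replicate 1, 2097 with treat, 11192 with adjusted p alone, 4711 with edgeR, 4762 with DESeq2 and 4254 to 4635 with a library left out. Higher and lower calls were 1518 and 1656 with quantile normalisation and 343 and 4696 with CPM. Apart from effects of the scaling itself, the cause of these shifts was not tested. The members with a SSRP1 peak were 3 within 1000 bp of a start site (26.0% of all genes) and 5 with a peak that overlaps the gene (31.1%). They were 2 with peaks of at least 500 bp (17.6%) and 1 with peaks that overlap a SUPT16 peak (9.5%). The counts in these last settings are near the shares of all genes.

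Replicate numbers are shared between control and KD, but same-numbered libraries did not deviate together (r from -0.06 to 0.02 across genes), and the replicate block gave 4405 genes and 7 members called, with a log2 fold change of 3.34 for *Pdk1*. Depth limits the low members: in control, *Ankrd37* rested on 16 to 34 reads and *Egln3* on 30 to 54, and in chromatin RNA *Bnip3*, *Ankrd37*, *Egln3* and *Ndrg1* had 8 or fewer counts.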
